A study of Mus musculus with 17 samples.

Results

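Macrophage C-type lectin receptors are described here in the RNA-Seq libraries of mouse peritoneal macrophages (PMs) exposed to the HIV protein Tat. The 8 genes are Clec4e, Clec4d, Clec4n, Clec5a, Clec12a, Clec4a2, Clec10a and Clec7a, matched by symbol to the 21683 genes of the expression table. They were selected on measured values of these same libraries, so their levels and differences are a description and carry no test. Values were read for 7 of the 8 genes, and Clec7a, the beta-glucan receptor Dectin-1, is not analysed here. All 7 passed the filter on low values, at least 1 TPM in at least 5 libraries, which left 10451 genes for testing.

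The PMs came from 8-week-old C57BL/6 mice, were elicited with 1 mL of 3% thioglycollate, attached to culture plates for 4 h and were then treated for 12 h. The 3 groups were IKKβF/F PMs with PBS as the control (F/F PBS, n = 6 libraries), IKKβF/F PMs treated with Tat at 100 nM (F/F Tat, n = 6 libraries), and IKKβΔMye PMs treated with the same dose (ΔMye Tat, n = 5 libraries). Both genotypes carry the floxed IKKβ alleles. The ΔMye mice carry in addition 1 copy of the LysM-Cre knock-in, which removes IKKβ in cells that have activated the lysozyme 2 gene, neutrophils and other myeloid cells as well as macrophages. The Tat protein was recombinant and made in bacteria. A PBS group of ΔMye PMs is not analysed here, and what sets ΔMye Tat apart from F/F Tat may have been there before Tat was added. The study describes the libraries as biological replicates from mice, and the labels do not tie a library to an animal.

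C-type lectin receptors are membrane proteins of myeloid cells with which these cells sense sugars, glycolipids and products of dead cells. The activating members Clec4e (Mincle), Clec4d (MCL) and Clec4n (Dectin-2) signal through the adaptor FcRγ, encoded by Fcer1g, and Clec5a (MDL-1) signals through DAP12 and DAP10, encoded by Tyrobp and Hcst. These adaptors recruit the kinase Syk, and Syk engages Card9, Bcl10 and Malt1, through which the receptors reach the IKK complex and NF-κB. Clec12a (MICL) and Clec4a2 (DCIR) carry instead an inhibitory motif that binds phosphatases such as SHP-1, encoded by Ptpn6, and Clec10a (MGL1) binds galactose-type sugars and is a marker of alternatively activated macrophages.

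Of the 7 receptors with values, 6 are on chromosome 6 and Clec10a is on chromosome 11 (GENCODE M21, build GRCm38). Clec4a2 (chr6:123106428-123143999, plus strand), Clec4n (chr6:123229843-123247021, plus strand), Clec4d (chr6:123262111-123275265, plus strand) and Clec4e (chr6:123281789-123289870, minus strand) lie within 183 kb of each other. Clec5a (chr6:40574894-40585821, minus strand) and Clec12a (chr6:129342691-129365303, plus strand) lie elsewhere on the chromosome, and Clec10a is at chr11:70156197-70170834, plus strand. All 7 are annotated as protein-coding, and the table gives 1 value per gene. The genes Clec4d and Clec4e end 6.52 kb apart, and the bases upstream of their starts are shown with those of Clec5a. With Tat, Clec4d and Clec4e are described below as higher and Clec5a as lower. The sequences are from RefSeq (GRCm38.p6) and run 5′ to 3′ on the strand of the gene, toward its start. Capitals mark matches on either strand to the PU.1 motif GAGGAA and the C/EBP motif TTNNGNAA, both bound by factors of myeloid cells.
Clec4d, chr6:123261857-123262106, plus strand: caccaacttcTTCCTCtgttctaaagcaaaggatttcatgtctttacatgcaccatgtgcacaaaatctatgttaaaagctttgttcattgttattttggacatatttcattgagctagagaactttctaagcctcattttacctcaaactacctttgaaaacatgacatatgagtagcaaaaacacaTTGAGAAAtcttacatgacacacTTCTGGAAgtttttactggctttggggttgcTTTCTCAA
Clec4e, chr6:123289872-123290121, minus strand: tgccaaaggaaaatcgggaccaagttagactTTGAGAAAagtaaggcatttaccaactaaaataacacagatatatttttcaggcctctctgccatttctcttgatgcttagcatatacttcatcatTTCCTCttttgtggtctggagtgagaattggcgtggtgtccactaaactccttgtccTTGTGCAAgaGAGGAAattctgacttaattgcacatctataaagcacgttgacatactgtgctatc
Clec5a, chr6:40585822-40586055, minus strand: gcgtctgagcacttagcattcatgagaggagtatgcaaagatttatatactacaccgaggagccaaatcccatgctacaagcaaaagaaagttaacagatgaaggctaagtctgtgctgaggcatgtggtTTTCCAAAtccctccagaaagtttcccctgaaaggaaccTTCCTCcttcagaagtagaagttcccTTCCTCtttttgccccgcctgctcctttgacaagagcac

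In these windows Clec4d had 1 match to the PU.1 motif and 3 to the C/EBP motif, Clec4e had 2 of each, and Clec5a had 2 to the PU.1 motif and 1 to the C/EBP motif, none overlapping another. Over the 32841 upstream windows of 250 bases in the same RefSeq table, 23.3% hold the PU.1 motif and 36.9% hold the C/EBP motif. The 10-base NF-κB consensus, held by 7.25% of those windows, was in none of the windows of Clec4d, Clec4e and Clec5a, nor in those of Clec12a and Clec4a2, which lie inside longer GENCODE transcripts and are not shown. That says only that these letters are not there. The AP-1 motif TGANTCA, held by 6.75% of windows, was found once among the windows of these receptors, in that of Clec12a. No window was read for Clec4n and Clec10a.

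Values are in TPM, which give a transcript's share of the library after correction for its length, so that genes can be compared within a library. The number of reads is not kept in TPM, so depth is unknown, and the spread between libraries is the only error given. The log2 difference of the median gene was -0.65 for Tat in F/F PMs and 0.22 between ΔMye Tat and F/F Tat. Median-ratio scaling, which sets a typical gene equal across libraries, moved log2 differences by 0.63 for Tat and by -0.21 for ΔMye, and scaled differences are given where they matter. Ikbkb, which encodes IKKβ, was at 21.6 to 25.4 TPM in F/F Tat and at 12.8 to 19.9 TPM in ΔMye Tat, without overlap (log2 difference -0.51, standard error 0.08, limma adjusted p = 4.51e-05). All 8 macrophage markers averaged at least 1 TPM in every group, and their summed level was 3870 to 4242 TPM in F/F PBS libraries, 3422 to 3646 TPM with Tat in F/F and 3729 to 3868 TPM in ΔMye Tat. Within that list Csf1r, the receptor for the macrophage growth factor CSF1, went from 381 to 64.0 TPM with Tat, a log2 difference of -2.57 (limma adjusted p = 9.64e-16). The summed dendritic cell markers were at 7.23 to 15.8 TPM in F/F PBS libraries, 41.5 to 46.2 TPM with Tat in F/F and 22.4 to 27.0 TPM in ΔMye Tat, nearly all of it Ccr7, with 1 of the 8 markers at a mean of 1 TPM or more. Neutrophil markers summed to 52.8 to 61.4, 65.7 to 77.8 and 87.8 to 106 TPM, nearly all of it S100a8, with Elane and Ngp at 0 in every library. S100a9, also in that list, averaged 1.15, 0.842 and 0.716 TPM in the same order of groups, which overlapped. Of the 9 neutrophil markers, 3 averaged at least 1 TPM in F/F PBS and 2 in each Tat group. The part of these shifts in the receptor values was not tested, and in bulk RNA fewer cells of a type cannot be told apart from less RNA per cell.

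Clec4e and Clec4d were by far the most abundant of the receptors in every group, and together they made up more of the receptor RNA after Tat. In F/F PBS the order by mean TPM was Clec4e, Clec4d, Clec4n, Clec4a2, Clec12a, Clec5a and Clec10a. The ranges of Clec4e and Clec4d overlapped there, as did those of Clec4n and Clec4a2, although Clec4e exceeded Clec4d in 6 of 6 libraries and Clec4n exceeded Clec4a2 in 5 of 6. In F/F Tat the order was Clec4e, Clec4d, Clec12a, Clec4n, Clec5a, Clec4a2 and Clec10a, and Clec5a and Clec4a2 overlapped, with Clec5a the higher in 3 of 6 libraries. In ΔMye Tat the order was Clec4e, Clec4d, Clec12a, Clec5a, Clec4n, Clec4a2 and Clec10a, and no neighbours in that order overlapped.

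**Figure D1:**
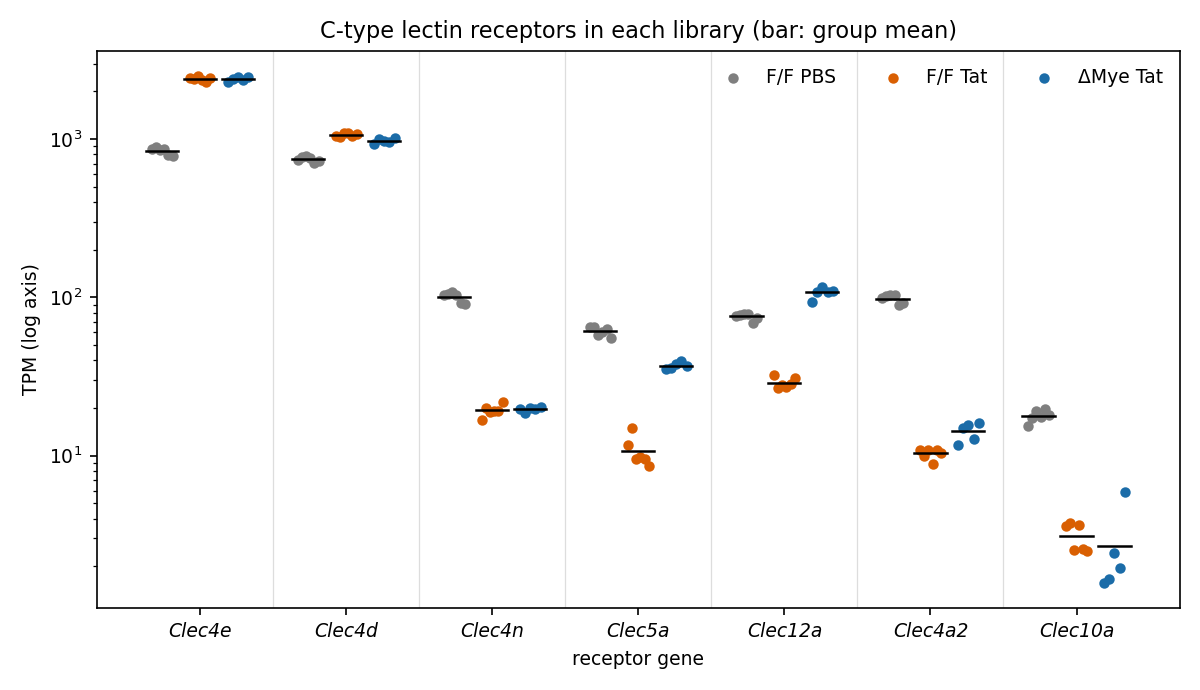
TPM of the 7 receptors (x axis) in each of the 17 libraries, on a log axis. Points are libraries, coloured by group, and bars are group means. Clec4e and Clec4d lie above the other receptors in all libraries, and the ΔMye Tat points of Clec12a and Clec5a lie above the F/F Tat points, whereas those of Clec4e and Clec4n overlap them.

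Clec4e, the receptor for mycobacterial cord factor and for a nuclear protein released by dead cells, had the highest ratio of F/F Tat to F/F PBS of the receptors. It was at 776 to 888 TPM (median 859) in F/F PBS and at 2304 to 2499 TPM (median 2404) in F/F Tat. Every F/F Tat library was above every F/F PBS library, and the means were 840.3 ± 44.0 (SD, n = 6) and 2402.5 ± 65.3 (SD, n = 6) TPM, a ratio of 2.86 and a log2 difference of 1.52 (standard error 0.03). The ΔMye Tat libraries were at 2289.6, 2379, 2467, 2369 and 2453 TPM. They lay inside or just below the range of F/F Tat, and the difference from F/F Tat was -0.01 on the log2 scale (standard error 0.03), or -0.22 after scaling. Clec4e thus stood just under the 3-fold threshold in TPM as deposited and above it after scaling, where its log2 difference with Tat was 2.15.

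Clec4d, which forms complexes with Clec4e and is needed for its surface expression, was also higher with Tat, by less. It was at 709.7 to 786 TPM (median 752) in F/F PBS and at 1030.7 to 1094 TPM (median 1062) in F/F Tat. The 2 groups did not overlap, and the ratio of the means was 1.42, a log2 difference of 0.51 (standard error 0.03), or 1.14 after scaling. In ΔMye Tat it was at 936, 996, 970.4, 950.8 and 1010.0 TPM. All 5 values were below the lowest F/F Tat value and above the highest F/F PBS value, and the log2 difference from F/F Tat was -0.13 (standard error 0.03), or -0.34 after scaling.

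Clec4n, the receptor for fungal mannans, lies 15.1 kb from Clec4d and uses the same adaptor, and was lower with Tat. It was at 90.1 to 108 TPM (median 104) in F/F PBS and at 16.9 to 21.9 TPM (median 19.1) in F/F Tat. The means were 100.4 ± 7.47 (SD, n = 6) and 19.3 ± 1.64 (SD, n = 6) TPM, a log2 difference of -2.37 (standard error 0.06) with no overlap. The ΔMye Tat libraries were at 19.6, 18.6, 19.98, 19.8 and 20.4 TPM. These 5 values lay within the F/F Tat range, and the log2 difference from F/F Tat was 0.03 (standard error 0.06), or -0.18 after scaling. In F/F macrophages the 3 FcRγ-coupled receptors of this gene cluster therefore split, with Clec4e and Clec4d higher and Clec4n lower with Tat, under each scaling tried.

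Clec5a, an activating receptor of monocytes and macrophages known for its recognition of dengue virus, was lower with Tat and higher in ΔMye Tat than in F/F Tat. It was at 55.5 to 64.9 TPM (median 62.1) in F/F PBS and at 8.59 to 14.9 TPM (median 9.67) in F/F Tat, a log2 difference of -2.53 (standard error 0.10). In ΔMye Tat it was at 35.0, 35.8, 38.1, 39.5 and 36.6 TPM. The ΔMye Tat libraries formed a group of their own, above every F/F Tat library and below every F/F PBS library. The mean of 37.0 ± 1.81 (SD, n = 5) TPM was 3.47 times that of F/F Tat, a log2 difference of 1.81 (standard error 0.10), or 1.60 after scaling. It was 0.605 times the F/F PBS mean.

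Clec12a, an inhibitory receptor for uric acid crystals and dead cells, was the only receptor to exceed its F/F PBS level in ΔMye Tat while being below it in F/F Tat. It was at 68.5 to 78.8 TPM (median 77.1) in F/F PBS and at 26.6 to 32.0 TPM (median 28.2) in F/F Tat, a log2 difference of -1.39 (standard error 0.05), or -0.76 after scaling. In ΔMye Tat it was at 94.0, 108, 116, 109 and 109.9 TPM. All 5 values were above the highest F/F PBS value. The mean of 107 ± 8.21 (SD, n = 5) TPM was 3.73 times the F/F Tat mean, a log2 difference of 1.89 (standard error 0.06), or 1.68 after scaling, and 1.42 times the F/F PBS mean. ΔMye Tat and F/F PBS differ in genotype as well as treatment, so what that last ratio holds of each cannot be told apart.

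Clec4a2, the other inhibitory receptor, had the lowest ratio of F/F Tat to F/F PBS of the 7. It was at 89.3 to 104 TPM (median 100.3) in F/F PBS and at 8.88 to 10.9 TPM (median 10.6) in F/F Tat. The F/F PBS mean was 9.53 times the F/F Tat mean, a log2 difference of -3.24 (standard error 0.07), or -2.61 after scaling. In ΔMye Tat it was at 11.7, 14.9, 15.6, 12.8 and 16.1 TPM. These values were all above the F/F Tat range, by a log2 difference of 0.45 (standard error 0.08), or 0.24 after scaling, against 0.22 and 0.01 for the median gene. The 2 inhibitory receptors thus differed in ΔMye Tat, where Clec12a was 7.61 times Clec4a2 within a library, against 2.80 times in F/F Tat and 0.771 times in F/F PBS. Of the 31-base sequences of Clec4a2 transcripts, 10.3% also occur in other genes, Clec4a4 and Clec4b1 among them, so part of its value may have been assigned between copies.

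Clec10a had the lowest level of the receptors in each group. It was at 15.4 to 19.5 TPM (median 17.8) in F/F PBS and at 2.51 to 3.74 TPM (median 3.06) in F/F Tat, a log2 difference of -2.51 (standard error 0.23). In ΔMye Tat it was at 1.58, 1.67, 2.42, 1.95 and 5.86 TPM. The last of these libraries, number 23 of the labels, was above the F/F Tat range and the other 4 were below it, so the groups overlapped. The log2 difference of ΔMye Tat from F/F Tat was -0.35 (standard error 0.24), and -0.66 without library 23. Clec10a shares 14.8% of its 31-base sequences with other genes, Mgl2 above all, which was at 2.11, 0.802 and 0.237 TPM on average in F/F PBS, F/F Tat and ΔMye Tat.

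Replicate libraries agreed closely for most receptors. The coefficient of variation within a group was 2.29% to 5.24% for Clec4d and Clec4e, 3.29% to 8.48% for Clec4n and 5.18% to 7.65% for Clec12a. It was 6.34% to 13.3% for Clec4a2, 4.90% to 21.6% for Clec5a and 8.35% to 66.8% for Clec10a, the receptor with the lowest level. The high value of Clec5a was in F/F Tat, where library 8 was at 14.9 TPM, and that of Clec10a was in ΔMye Tat. In F/F PBS, libraries 5 and 6 held the lowest values of Clec12a, Clec4d, Clec4e, Clec4n and Clec4a2, whereas for Clec5a libraries 6 and 3 and for Clec10a libraries 1 and 2 were lowest. Leaving out any 1 of the 17 libraries moved the log2 difference of Tat by little, to between -1.42 and -1.37 for Clec12a, between -2.63 and -2.48 for Clec5a and between 1.49 and 1.53 for Clec4e. For ΔMye Tat against F/F Tat it was then 1.86 to 1.94 for Clec12a and 1.75 to 1.91 for Clec5a.

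ΔMye Tat libraries can also be set beside F/F PBS, a contrast that mixes genotype and treatment and shares its samples with both of the others. Clec4n, Clec10a and Clec4a2 remained far below F/F PBS, with log2 differences of -2.34, -2.85 and -2.79 (standard errors 0.06, 0.24 and 0.08). Clec5a was lower by a smaller amount, -0.72 (standard error 0.10), or -0.30 after scaling. Clec4e, Clec12a and Clec4d were above F/F PBS, by 1.51 (standard error 0.03), 0.50 (0.06) and 0.38 (0.03). In all 7 cases the ΔMye Tat and F/F PBS libraries did not overlap. How many of all tested genes were likewise without overlap was not counted in this contrast. With Tat in F/F PMs that share was 77.6%, so nothing is read from the 7 cases.

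Set beside all tested genes, the receptors were counted as called where the adjusted p was under 0.01 and the change was over 3-fold. For Tat in F/F PMs, 0 of the 7 were called higher in limma, where 5.21% of all tested genes were, and 4 (Clec4a2, Clec5a, Clec10a and Clec4n) were called lower, where 19.4% were. At the adjusted p alone, 2 were higher (17% of all genes) and 5 lower (67.6%), and the groups did not overlap for 7 (77.6%). For ΔMye Tat against F/F Tat, 2 were called higher (Clec12a and Clec5a), where 0.44% of all genes were, and 0 lower in limma, where 0.316% were. At the adjusted p alone, 3 were higher (38.8% of all genes), 1 was lower (8.87%) and 3 were neither, and the groups did not overlap for 4 (36.6%). The genes had been chosen with these contrasts in view, so nothing is read from the counts. The median log2 difference of the 7 was -2.37 with Tat (-1.74 after scaling) and 0.03 in ΔMye Tat (-0.18 after scaling), so the second changed sign with the scaling.

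**Figure D2:**
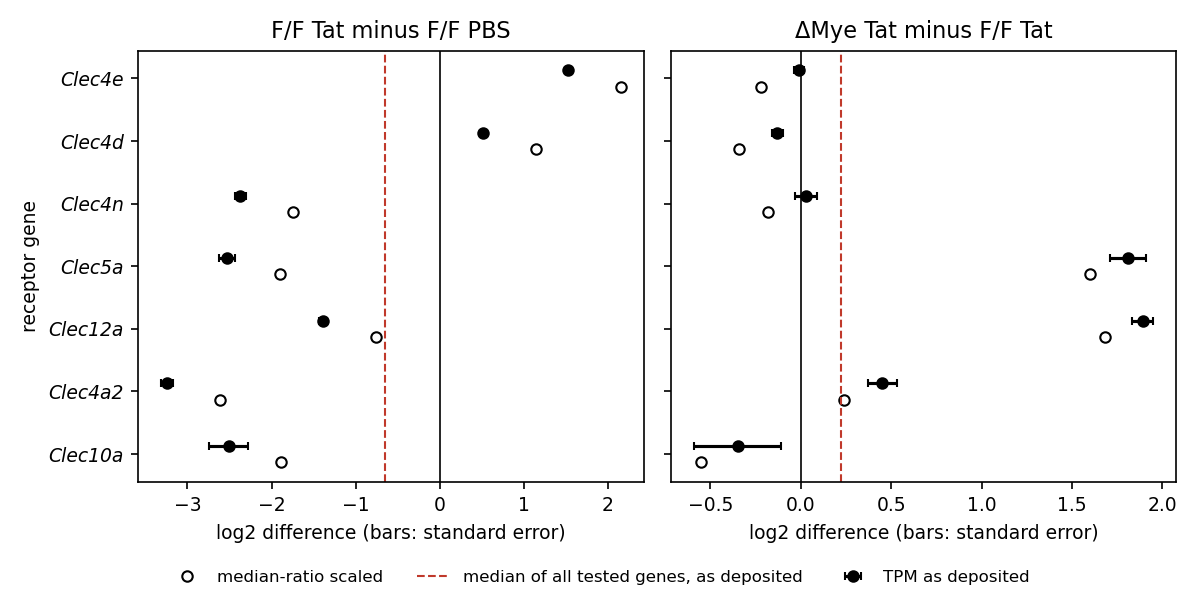
Log2 differences of the 7 receptors for F/F Tat minus F/F PBS and ΔMye Tat minus F/F Tat, with standard errors (bars). Filled points are TPM as deposited, open points are after median-ratio scaling, and the dashed line is the median of all tested genes, -0.65 and 0.22. Scaling shifts all receptors by about the same amount, 0.63 and -0.21, and Clec12a and Clec5a lie well to the right of the other 5 receptors in the second panel.

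Ratios of receptors within a library do not depend on the scaling between libraries. The summed TPM of the 7 receptors does depend on that scaling. As deposited, the sum was 1941.9 ± 85.4 TPM (SD, n = 6) in F/F PBS, 3538.5 ± 75.8 TPM (SD, n = 6) in F/F Tat and 3545 ± 107 TPM (SD, n = 5) in ΔMye Tat. Clec4e and Clec4d made up 81.8% of that sum in F/F PBS, 98.0% of it in F/F Tat and 94.9% of it in ΔMye Tat, and the 3 ranges did not overlap. The receptor RNA was thus spread over fewer genes after Tat. The ratio of Clec4e to Clec4d was 1.07 to 1.17 in F/F PBS libraries, 2.17 to 2.32 with Tat in F/F and 2.39 to 2.54 in ΔMye Tat. Clec4e was 8.38 times Clec4n in F/F PBS libraries, 125 times with Tat in F/F and 122 times in ΔMye Tat, and the last 2 groups overlapped (110.4 to 144 and 117 to 128). The ratio of Clec12a to Clec5a also overlapped between F/F Tat (1.79 to 3.57) and ΔMye Tat (2.69 to 3.05) and was lower in F/F PBS (1.08 to 1.36).

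The genes whose profiles over the 17 libraries were nearest to each receptor were found by the root mean square difference of centred log2 values, among 5824 genes with a mean of at least 10 TPM. For Clec12a they were Sla and H2-DMb1 (distances 0.19 and 0.20), and for Clec5a Ncoa4 and H2-DMa (0.22 and 0.23). H2-DMa and H2-DMb1 encode the chains of the protein that loads peptides onto MHC class II. The nearest other receptor to each of Clec12a and Clec5a was the other, at 0.60. For Clec4e they were Spryd7 and Slfn2 (0.05 and 0.06), and for Clec4d Syf2 and Ubb (0.05 and 0.06). For Clec4n they were Cd300ld and the fatty acid binding protein gene Fabp4 (both 0.13), for Clec4a2 the lysosomal lipase gene Lipa and Prxl2b (0.15 and 0.16), and for Clec10a Bex1 and Fabp4 (0.39 and 0.44). Of the receptors, Clec4n was nearest to both Clec4a2 (0.39) and Clec10a (0.46). These distances are a description over libraries that share their groups.

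Of 46 other C-type lectin genes listed, 15 passed the filter, and the other 31 reached at most 2.34 TPM in any library, 8 of them being listed at 0 throughout. With Tat, 1 of the 15 was called higher and 5 lower (limma), where 5.21% and 19.4% of all tested genes were. At the adjusted p alone 3 rose (17% of all tested genes) and 10 fell (67.6%), with a median log2 difference of -1.26 (-0.67 after scaling) against -0.65 (-0.03) over all tested genes. Cd69, an activation marker beside Clec12a on chromosome 6, rose from 3.99 ± 0.692 to 89.3 ± 7.19 TPM (SD, n = 6 each), a log2 difference of 4.46 (limma adjusted p = 9.20e-20). Olr1, the scavenger receptor LOX-1, rose from 6.74 to 14.3 TPM (log2 difference 1.07, limma adjusted p = 1.30e-10). The genes called lower were Thbd (thrombomodulin), Cd93, Clec4a3, Clec2i and Clec4b1, with log2 differences of -5.55, -4.40, -3.37, -3.00 and -2.83. Clec4b1 was low, at a mean of 1.98 TPM in F/F PBS and 0.206 TPM in F/F Tat (standard error of the difference 0.47). It shares 19% of its 31-base sequences with other genes, Clec4a2 among them. With a pseudocount of 1 or the filter at 5 TPM, 4 other C-type lectin genes were called lower. Clec4a3, a further DCIR-type gene, fell from 99.4 ± 3.09 to 9.56 ± 1.23 TPM (SD, n = 6 each), levels close to those of Clec4a2.

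In ΔMye Tat against F/F Tat, 0 of these 15 genes were called in either direction by limma. At an unadjusted limma p under 0.05, 8 were higher and 2 lower, where 5432 and 1251 of the 10451 tested genes were. At the adjusted p, 6 were higher (38.8% of all tested genes) and 2 lower (8.87%). The median log2 difference was 0.31 (0.10 after scaling). Olr1 was higher in ΔMye Tat, at 36.3 TPM (log2 difference 1.34, limma adjusted p = 1.10e-10). Cd93 was at 11.7 TPM, against 5.86 TPM in F/F Tat (log2 difference 0.98, limma adjusted p = 1.16e-06). Cd69 was lower in ΔMye Tat, at 40.8 TPM (log2 difference -1.12, limma adjusted p = 5.40e-09). For Clec4a3 the log2 difference was 0.65 (standard error 0.08), beside 0.45 (0.08) for Clec4a2.

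Other genes within 100 kb of a receptor were tested in 7 cases. With Tat 1 of them, Cd69, was called higher (5.21% of all tested genes) and 2 were called lower (19.4%), Slc16a13, near Clec10a, and Clec4b1, near Clec4a2 (limma adjusted p = 9.20e-20, 2.37e-09 and 1.52e-05). Clec4d and Clec4e, the receptors higher with Tat, had no tested neighbour other than Clec4n and each other within that distance.

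**Figure D3:**
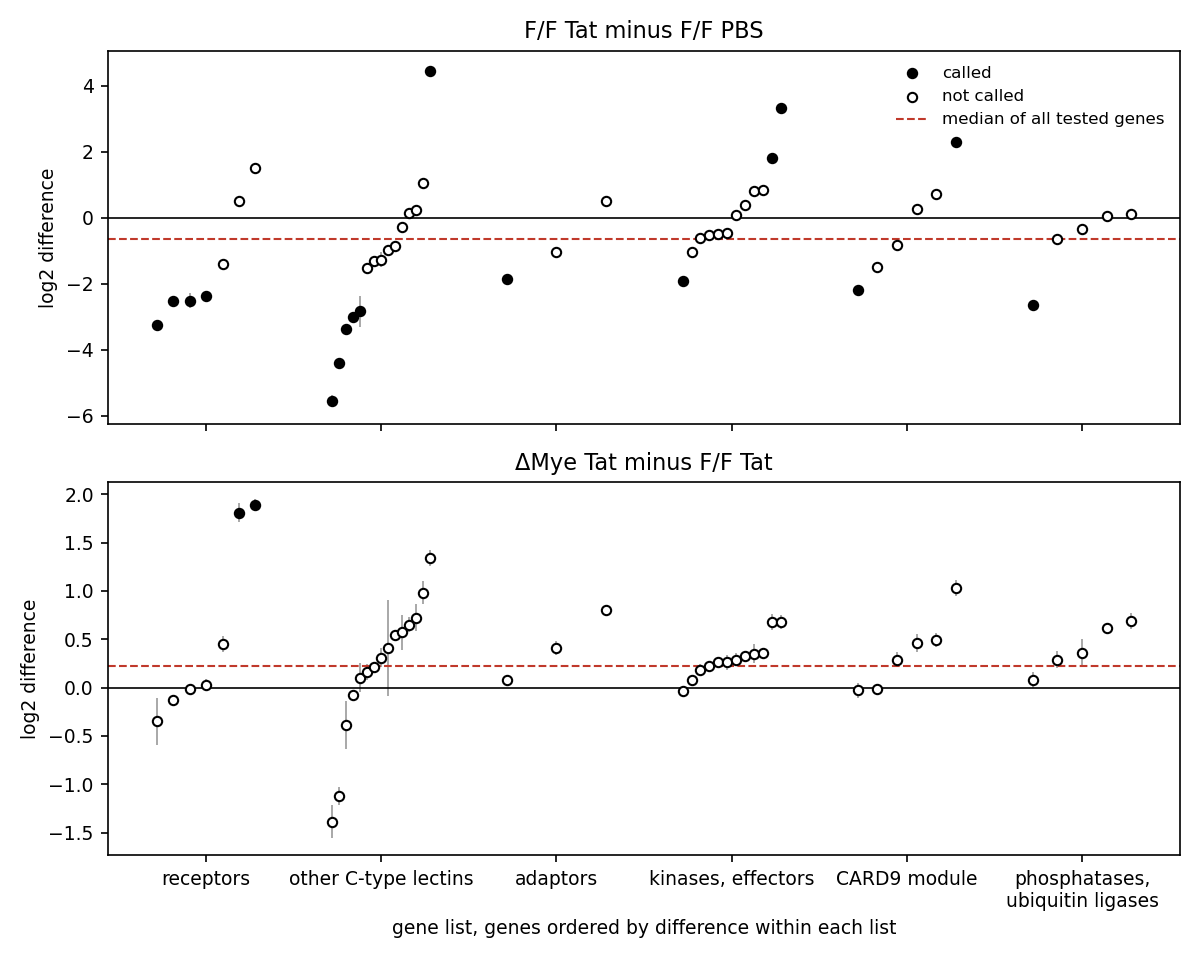
Log2 differences (points, with standard errors) of the genes of each list, for F/F Tat minus F/F PBS above and ΔMye Tat minus F/F Tat below. Filled points are called genes (adjusted p under 0.01 with over 3-fold change), and the dashed line is the median of all tested genes. In the lower panel the filled points are the receptors Clec12a and Clec5a, and most signalling genes lie between 0 and 1.

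The adaptors of the activating receptors differed from each other with Tat. The product of Fcer1g carries the signal of Clec4e, Clec4d and Clec4n. Fcer1g was at 2063 to 2191 TPM in F/F PBS and 3031 to 3157 TPM in F/F Tat. Its log2 difference was 0.52 (limma adjusted p = 1.19e-13), or 1.15 after scaling. Tyrobp, whose product DAP12 serves Clec5a, was at 2347 to 2771 TPM in F/F PBS and 667 to 734 TPM in F/F Tat, a log2 difference of -1.84 (limma adjusted p = 6.64e-20), or -1.21 after scaling, which is under the fold threshold. Hcst, which encodes DAP10, had a log2 difference of -1.03 (limma adjusted p = 6.34e-12), or -0.40 after scaling. The ratio of Fcer1g to Tyrobp within a library went from 0.769 to 0.933 in F/F PBS to 4.18 to 4.54 in F/F Tat and was 2.50 to 2.78 in ΔMye Tat, without overlap between the groups. The FcRγ gene was thus higher with Tat, as were Clec4e and Clec4d but not Clec4n. The DAP12 and DAP10 genes were lower, as was Clec5a. At the adjusted p, 17% of all tested genes were higher with Tat and 67.6% lower, so nothing is read from these pairings.

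In ΔMye Tat Tyrobp was at 1204 to 1291 TPM, above F/F Tat by a log2 difference of 0.80 (limma adjusted p = 1.60e-12), or 0.59 after scaling. For Hcst the log2 difference was 0.41 (limma adjusted p = 2.70e-05), or 0.20 after scaling, where it missed the threshold (limma adjusted p = 0.0436). For Fcer1g the log2 difference was 0.08 (limma adjusted p = 0.0171), and it was -0.14 after scaling. Clec5a and both adaptor genes of its receptor complex were thus higher in ΔMye Tat than in F/F Tat, by log2 differences of 1.81, 0.80 and 0.41. At the adjusted p, 38.8% of all tested genes were higher there, so nothing is read from this pairing.

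**Figure D4:**
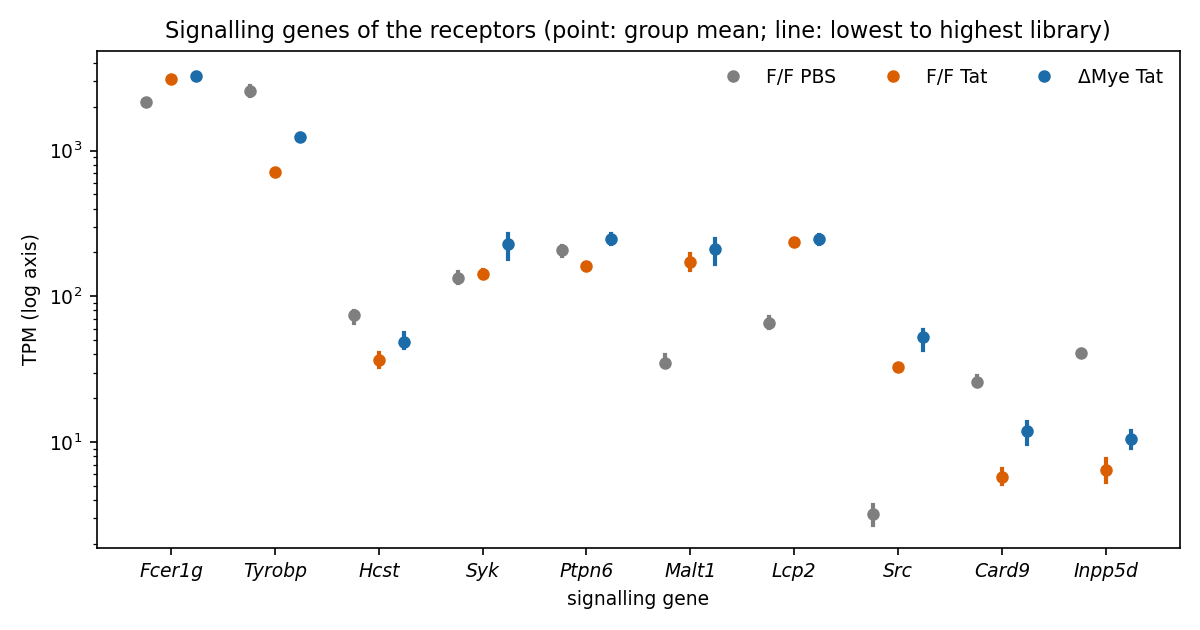
TPM (log axis) of 10 signalling genes of the receptors in the 3 groups. Points are group means and lines run from the lowest to the highest library. Fcer1g is lowest in F/F PBS, Tyrobp, Hcst, Card9 and Inpp5d are highest there, and all but Fcer1g, Malt1 and Lcp2 are without overlap higher in ΔMye Tat than in F/F Tat.

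Over the 26 adaptors, kinases, Card9 partners and inhibitors of the pathway, all of which passed the filter, 3 were called higher and 4 lower with Tat (limma), where 5.21% and 19.4% of all tested genes were. At the adjusted p alone 9 rose (17% of all tested genes) and 14 fell (67.6%). After scaling, 15 were higher and 8 lower, where 3880 and 3985 of the 10451 tested genes were. The median log2 difference was -0.40 and turned to 0.23 after scaling, so the list has no direction that holds under both. Src rose from 3.19 ± 0.326 to 32.7 ± 1.22 TPM (SD, n = 6 each), a log2 difference of 3.32 (limma adjusted p = 6.83e-19). Malt1, the protease of the Card9 complex, rose from 34.7 to 171 TPM (log2 difference 2.30, limma adjusted p = 6.32e-16), and Lcp2, the scaffold SLP-76, from 66.0 to 235 TPM (log2 difference 1.83). Card9 itself was at 26.0 ± 1.64 TPM in F/F PBS and 5.73 ± 0.509 TPM in F/F Tat (SD, n = 6 each), a log2 difference of -2.17 (limma adjusted p = 2.85e-15), or -1.54 after scaling, which is under the fold threshold. Syk was at 134 TPM in F/F PBS and 142 TPM in F/F Tat, a log2 difference of 0.08 (standard error 0.07, limma adjusted p = 0.244), or 0.72 after scaling. Of the inhibitors, Inpp5d, which encodes the phosphatase SHIP-1, fell from 40.9 to 6.47 TPM (log2 difference -2.65, limma adjusted p = 4.33e-17). The fourth gene called lower, Vav2, was named after its values were seen (log2 difference -1.91). For Ptpn6, the phosphatase bound by Clec12a, the log2 difference was -0.35 and turned to 0.28 after scaling.

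In ΔMye Tat against F/F Tat, 0 of the 26 signalling genes were called in either direction by limma. At an unadjusted limma p under 0.05, 21 were higher and 0 lower, where 5432 and 1251 of the 10451 tested genes were. At the adjusted p, 17 were higher (38.8% of all tested genes) and 0 lower (8.87%). After scaling 9 were higher and 4 lower at the adjusted p, where 1714 and 1969 of the 10451 tested genes were. The median log2 difference was 0.31 (0.10 after scaling), against 0.22 (0.01) over all tested genes. Card9 was higher in ΔMye Tat, at 11.9 ± 1.64 TPM (SD, n = 5), a log2 difference of 1.03 (limma adjusted p = 6.61e-09), or 0.82 after scaling. Syk was also higher, at 228 TPM (log2 difference 0.68, limma adjusted p = 1.84e-07), as was Ptpn6, at 249 TPM (log2 difference 0.62, limma adjusted p = 3.94e-10). Src was higher by 0.68 and Inpp5d by 0.69 on the log2 scale (limma adjusted p = 5.10e-07 and 6.58e-07). For Malt1 the log2 difference was 0.29 (limma adjusted p = 0.00524), with overlap between the groups, and 0.08 after scaling (limma adjusted p = 0.321), and for Lcp2 the log2 difference was 0.08 (limma adjusted p = 0.136).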

How the data were processed

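RNA-Seq of thioglycollate-elicited peritoneal macrophages was analysed in 17 libraries of 3 groups, taken from the sample labels. The authors ran Salmon with Ensembl's GRCm38 annotation (mm10 in the submitters' processing notes) and deposited TPM for each gene symbol, without a stated step that makes libraries comparable. TPM keep no read counts, so depth is unknown and the spread between libraries is the only measure of precision.

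The 10451 genes that reached 1 TPM in 5 or more libraries were fitted with limma 3.58.1 (R 4.3.3, trend) after log2(TPM + 0.1), all groups in one fit with 14 residual degrees of freedom. A fold change on this scale understates that of low genes. Adjusted p (Benjamini-Hochberg) covers all tested genes. A call needed an adjusted p under 0.01 together with over 3-fold change, the thresholds of the study. The study's own test, in edgeR on counts after TMM normalization between libraries, was not repeated. The main calls here are on TPM as deposited, without scaling. The script was tested on simulated data. The receptors and the gene lists were chosen with earlier results of these data known. Other C-type lectin and signalling genes are named where they had the largest called rises or falls (up to 4 per direction) without overlap and at 10 TPM or more, filled to 2 from the adjusted p alone. The 3 adaptors, Syk, Card9 and Ptpn6 are always named. Mgl2 and the summed marker lists are given beside results they touch. Alternatives tried were other pseudocounts (0.5 or 1) and filters (none or 5 TPM), 2 scalings (median-ratio and quantile), a fit of only the groups compared, robust fitting with array weights, no fold threshold, and each library left out. Markers of T and NK cells, B cells, mast cells, eosinophils and monocytes were also summed. Python 3.11.15, numpy 2.4.6, pandas 2.3.3 and matplotlib 3.10.9 were used. The labels place collection 3 days after thioglycollate, whereas the study's methods give 4 days. One further allele that all groups share is not reported here.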

Additional observations from a re-analysis of the deposited data

Results flagged for a closer look

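Among 69 combinations of gene and group examined (the 7 receptors and the 16 other named genes in 3 groups), 1 library stood far from the others of its group by Dixon's test, where chance flags about 1 in 20. Clec10a was at 5.86 TPM in the ΔMye Tat library numbered 23 and at 1.58 to 2.42 TPM in the other 4 libraries of that group.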

How the results depend on the processing

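Scaling between libraries was the choice that moved counts of called genes most, beside the fold threshold. With median-ratio scaling, 1 receptor (Clec4e) was called higher with Tat in place of 0, 2 other C-type lectin genes (Cd69 and Olr1) were called higher with Tat and 1 (Mgl2) lower in ΔMye Tat, and 1 signalling gene (Inpp5d) was called lower with Tat. With quantile normalization, 1 receptor (Clec12a) was called higher in ΔMye Tat, 2 other lectin genes were higher with Tat and 1 (Mgl2) lower in ΔMye Tat, and 2 signalling genes were lower with Tat. Without the filter, 8 other lectin genes were called lower with Tat and 1 (Clec1b) higher in ΔMye Tat. Without the fold threshold the receptors called were 2 higher and 5 lower with Tat and 3 higher and 1 lower in ΔMye Tat, the other lectin genes 3 higher and 10 lower with Tat and 6 higher and 2 lower in ΔMye Tat, and the signalling genes 9 higher and 14 lower with Tat and 17 higher in ΔMye Tat. Under median-ratio scaling the log2 difference of Ptpn6 with Tat turned to 0.28, and those of Lcp2 and Fcer1g in ΔMye Tat to -0.13 and -0.14. The cause of these moves was not tested. With each library left out, the count of other lectin genes called lower with Tat was 4 to 5 and the other counts of called genes did not move.

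The receptors kept the sign of their difference with Tat under every alternative run. Over the alternatives that keep all libraries, Clec4d ranged from 0.24 to 1.14, Clec4e from 1.25 to 2.15 and Clec12a from -1.40 to -0.76. Over the same alternatives, in ΔMye Tat, Clec12a ranged from 1.68 to 1.91 and Clec5a from 1.54 to 1.81, and the sign changed for Clec4e (-0.22 to 0.11) and Clec4n (-0.18 to 0.03). No paired analysis was possible because the labels do not tie a library to an animal. TPM give no counting error, so what depth limits is unknown.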

Other observations

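Marker sums of other cells, each from a list of 3 to 6 genes, moved as follows between F/F PBS, F/F Tat and ΔMye Tat. Monocyte markers, led by Ly6c2, summed to 42.0 to 56.4, 107.8 to 126 and 89.5 to 107 TPM. T and NK cell markers summed to 5.99 to 13.1, 5.65 to 7.23 and 9.91 to 12.1 TPM, and B cell markers to 12.1 to 25.4, 10.9 to 14.5 and 8.20 to 12.6 TPM. Mast cell markers summed to 26.3 to 35.3, 24.0 to 31.9 and 17.01 to 24.1 TPM, and eosinophil markers to 1.18 to 2.41, 1.27 to 2.09 and 0.955 to 1.41 TPM. The part of these values in the receptor levels was not tested.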
